A study of Mus musculus with 17 samples.

Results

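Protein kinase A is the kinase that cyclic AMP (cAMP) switches on, and its subunits, a pair of its anchoring proteins and the cAMP-activated exchange factors were followed across the hippocampi of sleep-deprived and undisturbed mice. The 10 genes listed were Prkaca and Prkacb (catalytic subunits), Prkar1a, Prkar1b, Prkar2a and Prkar2b (regulatory subunits), Akap5 and Akap12 (anchors), and Rapgef3 and Rapgef4 (Epac1 and Epac2). Every probe set annotated to exactly 1 of these symbols was kept, which gave 29 of the 45037 probe sets tested, for 9 of the 10 genes. Rapgef4 was the only symbol of no probe set in the annotation used and is not analysed here. None of the 29 differed between sleep-deprived and undisturbed mice at an adjusted p under 0.05 (limma, Benjamini-Hochberg over all probe sets), against 1.81% of all probe sets tested. With 29 probe sets, a count of 0 cannot be told apart from that share.

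In the inactive kinase, a pair of regulatory subunits holds a pair of catalytic subunits. cAMP binds the regulatory subunits and frees the catalytic ones, which then phosphorylate receptors, channels and the transcription factor CREB. Type I regulatory subunits are largely soluble, whereas type II subunits are held at membranes and synapses by A-kinase anchoring proteins, and Epac proteins carry a further branch of cAMP signalling by loading Rap GTPases. In the hippocampus this pathway is known for its part in lasting synaptic potentiation and memory, and loss of sleep is known to reduce hippocampal cAMP signalling in mice.

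Male C57BL/6J mice (genotype label C57/BL6) were recorded as 2 months old in the sample labels and as 2 to 4 months old in the protocol. They lived singly, and all were handled daily for 6 days beforehand. The sleep-deprived group (n = 8) was kept awake in the home cage for 5 h by gentle handling, and the undisturbed group (n = 9) was left alone in the home cage over the same period. Each array carried the dissected hippocampus of a separate animal, and dissections alternated between the groups. A group handled in the same way but left asleep was not part of the design, and the effects of handling and of lost sleep cannot be told apart. The tissue is a mixture of cells, so fewer cells of a type and less RNA per cell cannot be told apart either.

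The deposited values are log2 signals between 2.90 and 14.8, with array medians between 6.13 and 6.22 and correlations between arrays of 0.993 to 0.998. The number of arrays limits the precision. Excitatory neuron markers stood between 10.2 and 10.7 as a mean over 6 genes in every array. Of 69 marker genes measured in 11 cell type lists, 1 passed the test, the pericyte gene Pdgfrb, lower by 0.37 (limma adjusted p over genes 0.0049). The mean of 9 choroid plexus markers ranged from 5.82 to 7.41 in undisturbed and from 5.74 to 7.65 in sleep-deprived arrays. Sleep-deprived replicate 5 had the widest gap between 3′ and 5′ control probe sets (0.417, against 0.199 to 0.302 in the other arrays) and was the lowest of its group for 13 of the 29 probe sets. With the choroid plexus mean or the control gap as a covariate, or without that array, 0 of the 29 probe sets passed.

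Several of the genes carry, near a RefSeq transcript start, the letters that CREB recognises. The windows searched ran from 250 bases before to 50 bases after each start (build GRCm38.p6), on both strands, for the full element TGACGTCA and for its short forms TGACG and CGTCA, both of which lie within the full element. The stretches of 30 bases are shown because they set the kinase's own genes beside the pathway's transcriptional readout. Each is printed 5′ to 3′ on the strand of the gene, with the motif in capitals.
Prkar1a: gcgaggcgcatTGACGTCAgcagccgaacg
Prkaca, farther site: gtctgcaactcgCGTCActcatccaggagc
Prkaca, nearer site: gggctgcgggggCGTCAcggacagaggact
Prkacb: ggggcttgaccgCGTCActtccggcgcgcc
Prkar1b: tagagggcggagTGACGggcaggaggacga
Prkar2a: cgcggccgcgtgCGTCAcaacccgggcgcc
Rapgef3: gcttgaacccacTGACGtagtctcgggtag

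The full element was found in Prkar1a alone, at chr11:109650889-109650918 on the plus strand. Its first letter lay at position -49 from the start at 109650949. The Prkaca stretches lie at chr8:83972846-83972875 and chr8:83972960-83972989 on the plus strand, at -120 and -6 from 1 start. The Prkacb stretch lies at chr3:146813031-146813060 on the minus strand and the Prkar1b stretch at chr5:139150033-139150062 on the minus strand. That of Prkar2a is chr9:108692127-108692156 on the plus strand, with its motif beginning 4 bases before the start, and that of Rapgef3 is chr15:97767840-97767869 on the minus strand. Of the 22 windows of 9 listed genes in the table, 8 held at least a short form, against 20.8% of all windows, and some windows of a gene overlap. The full element was present in 2 overlapping Prkar1a windows, as the same site, and in 1.79% of all windows. A further 2 short-form sites of Prkar1a are not printed. The windows of Akap5, Prkar2b and Rapgef4 held none of these letters, and Akap12 has no entry. A match of letters is a description of the sequence, and no binding was measured here.

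Neither catalytic subunit gene passed the test. Prkacb, which encodes the Cβ subunit, gave a log2 signal of 11.74 ± 0.064 (SD, n = 9) in undisturbed and 11.72 ± 0.082 (SD, n = 8) in sleep-deprived mice at its brightest probe set, 1420611_at. Undisturbed arrays ran from 11.65 through a median of 11.74 to 11.84, and sleep-deprived arrays from 11.55 through 11.75 to 11.83. The groups lay almost on top of each other, with a difference of -0.02 and a 95% interval of -0.11 to 0.07 (limma adjusted p = 0.88). A further probe set made from the same accession, 1420610_at, gave -0.0023 with an interval of -0.15 to 0.15. Across arrays, after removal of group means, it correlated with 1420611_at at only r = 0.07. The third, 1457197_at, was dim, with every array between 3.84 and 4.20.

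Prkaca encodes the Cα subunit. Its probe sets gave unlike differences, although a direct comparison of the probe sets did not pass. Probe set 1447720_x_at ran from 10.33 through a median of 10.68 to 10.87 in undisturbed mice and from 10.17 through 10.53 to 10.67 in sleep-deprived mice. The sleep-deprived arrays overlapped the undisturbed range, and 7 of 8 lay below the undisturbed mean. The difference was -0.17 (SE 0.079, interval -0.33 to -0.0032), with a limma adjusted p of 0.31 and an exact permutation p of 0.074 before adjustment. Without sleep-deprived replicate 5 it was -0.12. The dimmer probe set 1450519_a_at gave -0.0064 (interval -0.12 to 0.11), from 10.03 ± 0.14 (SD, n = 9) to 10.02 ± 0.073 (SD, n = 8). The "x" in a probe set name marks probes that can also match other sequences, and "a" marks probes shared by transcripts of 1 gene. Taken within each array, 1450519_a_at minus 1447720_x_at differed between the groups by 0.16 (interval -0.051 to 0.37, limma adjusted p over all such pairs 0.51). Across arrays, after removal of group means, the Prkaca probe sets correlated at r = -0.25, a description over 17 arrays.

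**Figure D1:**
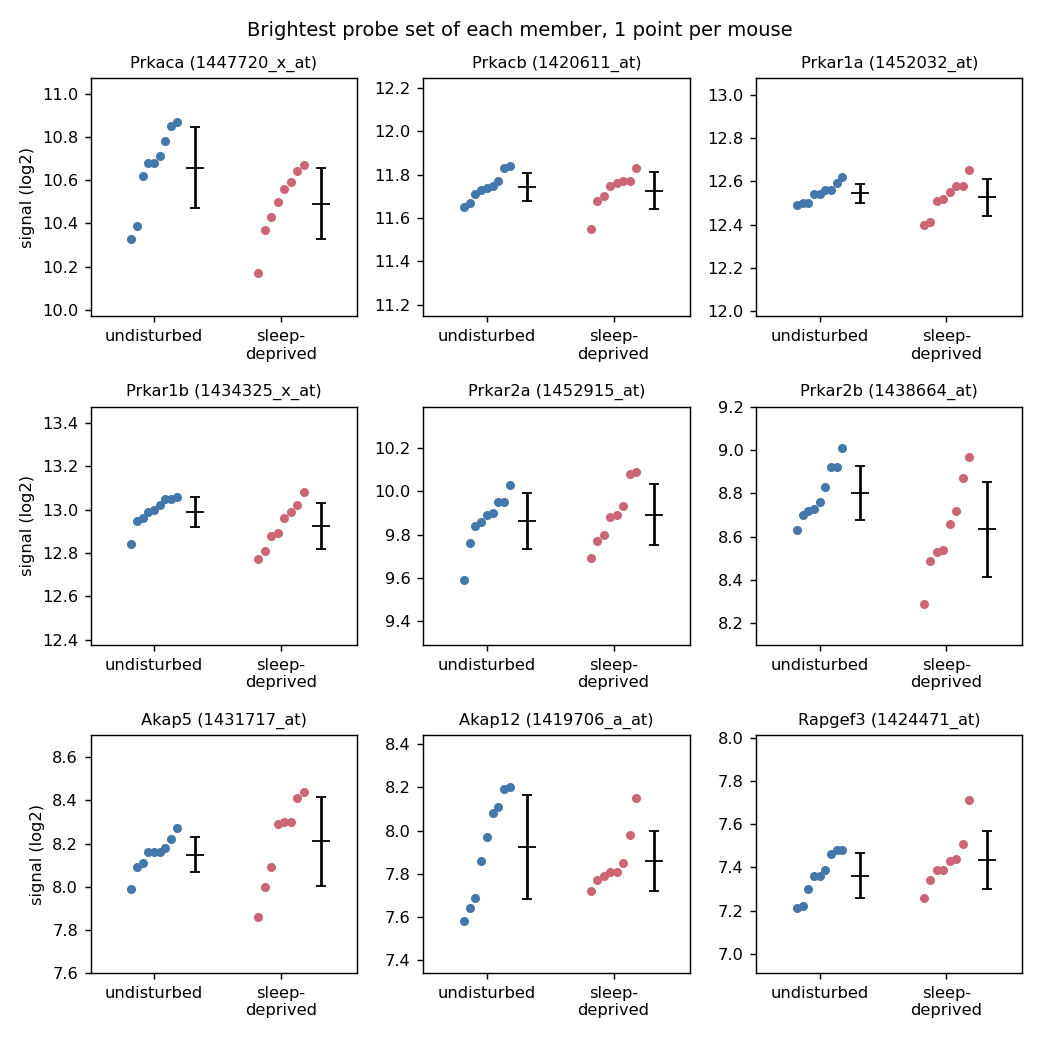
Log2 signal (vertical axis) of the brightest probe set of each of the 9 measured genes in the 9 undisturbed and 8 sleep-deprived mice, 1 panel a gene; each point is an array, points within a group are placed in order of value, and the line and bar are the group mean and SD. The groups overlap in every panel, and Prkaca and Prkar2b show the lowest sleep-deprived values relative to the undisturbed mean.

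The type I regulatory subunits gave small differences that did not pass. Prkar1b, the neuronal RIβ subunit, read 12.99 ± 0.068 (SD, n = 9) in undisturbed and 12.92 ± 0.11 (SD, n = 8) in sleep-deprived mice at 1434325_x_at. Undisturbed arrays ran from 12.84 to 13.06 (median 13.00) and sleep-deprived arrays from 12.77 to 13.08 (median 12.92), so the sleep-deprived range enclosed the undisturbed one. All 5 Prkar1b probe sets gave small negative differences, from -0.066 to -0.038, although 1416753_at turned to 0.0028 with cyclic loess and 0.00044 with repeated quantile normalization. None passed (limma adjusted p 0.54 to 0.76). Pairs of these probe sets share a target accession, so they are not independent readings. Their residuals correlated with the brightest at r = 0.56 to 0.82.

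Prkar1a, the ubiquitous RIα subunit and the gene with the full CREB element printed above, gave 12.55 ± 0.043 (SD, n = 9) and 12.52 ± 0.087 (SD, n = 8) at 1452032_at. Its undisturbed arrays lay between 12.49 and 12.62 and its sleep-deprived arrays between 12.40 and 12.65. The difference was -0.02 (interval -0.11 to 0.065, limma adjusted p = 0.85), and 1425550_a_at gave -0.03 at a signal near 12. The remaining probe set, 1447635_at, was dim, with arrays between 4.84 and 5.13.

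The type II subunits gave mean differences of unlike sign, and no test compared the genes. Prkar2a, the widely expressed RIIα subunit, gave positive differences at all 4 probe sets, 0.013 to 0.072. The largest came from 1432409_at, which was dim (mean signal 5.33), and 1428783_at turned to -0.0052 when arrays were centred on their medians. None of the 4 passed (limma adjusted p 0.71 to 0.94). At the brightest, 1452915_at, undisturbed arrays ran from 9.59 through 9.89 to 10.03 and sleep-deprived arrays from 9.69 through 9.88 to 10.09. The sleep-deprived arrays covered almost the same range as the undisturbed arrays, with a difference of 0.03 (interval -0.10 to 0.16). That difference ran from -0.00825 to 0.055 without each array in turn, so its sign was not stable.

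Prkar2b, the RIIβ subunit enriched in neurons, gave lower means in sleep-deprived mice at the pair of probe sets built on 1 accession. At 1438664_at, undisturbed arrays ran from 8.63 through 8.76 to 9.01 and sleep-deprived arrays from 8.29 through 8.60 to 8.97. The difference was -0.17 (SE 0.078, interval -0.33 to -0.0092), 6 of 8 sleep-deprived arrays lay below the undisturbed mean, and the limma adjusted p was 0.29 (exact permutation p before adjustment, 0.064).

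At 1456475_s_at, undisturbed arrays ran from 7.70 through 7.83 to 8.14 and sleep-deprived arrays from 7.39 through 7.69 to 8.01. The ranges overlapped, although 7 of 8 sleep-deprived arrays lay below the undisturbed mean. Its difference was -0.17 (SE 0.072, interval -0.32 to -0.023), with a limma adjusted p of 0.24 and an exact permutation p of 0.041 before adjustment. The third Prkar2b probe set, 1430640_a_at, read 6.97 to 7.51 in every sleep-deprived array and 7.11 to 7.46 in every undisturbed array, with a difference of -0.014 (interval -0.16 to 0.13). Residuals of 1456475_s_at followed those of 1438664_at at r = 0.69, and those of 1430640_a_at at r = 0.35.

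Akap5 encodes AKAP150, the anchor that holds type II protein kinase A beside calcineurin at the postsynaptic density. Probe set 1436142_at had the smallest p of the 29. Undisturbed arrays ran from 7.91 through a median of 8.07 to 8.40, and sleep-deprived arrays from 7.60 through 7.90 to 8.14. Of the sleep-deprived arrays, 7 of 8 lay below the undisturbed mean and 4 lay outside the undisturbed range. The difference was -0.21 (SE 0.073, interval -0.36 to -0.061), which is 1.16-fold lower, and it did not pass after adjustment (limma adjusted p = 0.148). The exact permutation p was 0.015 before adjustment.

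The brightest Akap5 probe set, 1431717_at, did not share that direction. It ran from 7.99 through 8.16 to 8.27 in undisturbed and from 7.86 through 8.29 to 8.44 in sleep-deprived mice, with a difference of 0.062 (interval -0.081 to 0.20, limma adjusted p = 0.72). The dim probe set 1447301_at gave 0.0092. Taken within each array, 1436142_at minus 1431717_at differed between the groups by -0.27 (SE 0.084, interval -0.45 to -0.099), with a limma p of 0.0038 and an adjusted p of 0.11 over all such pairs. Of the 20 pairs of a further and a brightest probe set in these genes, 0 passed, against 1.3% of all 16752 pairs.

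**Figure D2:**
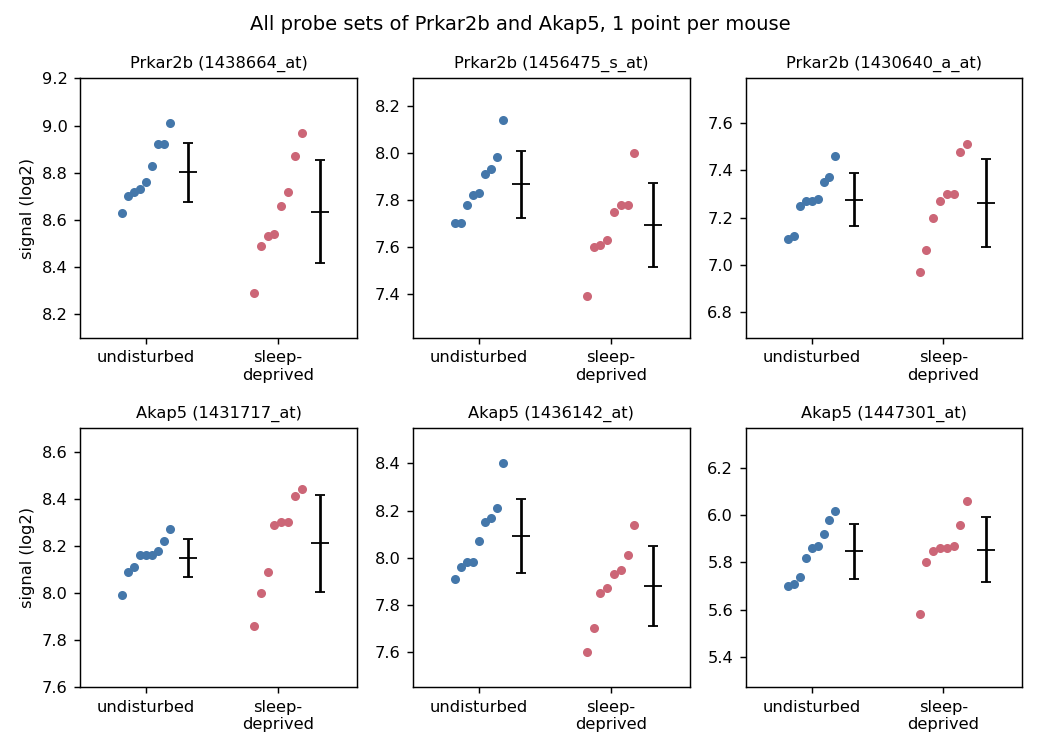
Log2 signal (vertical axis) of the 3 Prkar2b and the 3 Akap5 probe sets in each undisturbed (n = 9) and sleep-deprived (n = 8) mouse; each point is an array, placed within its group in order of value, with the group mean and SD as line and bar. Prkar2b 1438664_at and 1456475_s_at and Akap5 1436142_at have lower sleep-deprived means, with overlapping arrays, while Akap5 1431717_at has a higher one.

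Akap12, the scaffold also known as gravin or SSeCKS, was read by 1 probe set, 1419706_a_at. Undisturbed arrays ran from 7.58 through 7.97 to 8.20 and sleep-deprived arrays from 7.72 through 7.81 to 8.15. The undisturbed arrays were the more spread, and the difference of -0.065 had an interval of -0.25 to 0.12 (limma adjusted p = 0.78). Akap12 is also expressed by vascular and meningeal cells. The mean of 9 endothelial and mural markers ranged from 8.69 to 9.26 in undisturbed and from 8.76 to 9.12 in sleep-deprived arrays. That of 6 meningeal and fibroblast markers ranged from 7.71 to 8.75 and from 7.90 to 8.41. The part of these cells in the Akap12 values was not tested.

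Rapgef3, the exchange factor Epac1, was read by 5 probe sets, and none passed. The brightest, 1424471_at, ran from 7.21 through 7.36 to 7.48 in undisturbed and from 7.26 through 7.41 to 7.71 in sleep-deprived mice. Its difference was 0.070 (interval -0.050 to 0.19, limma adjusted p = 0.60). The other four gave -0.12 to 0.076. The lowest of these values came from 1438590_at, whose arrays lay between 4.47 and 5.18.

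Over the 29 probe sets, 18 differences were negative and 11 positive, from -0.21 to 0.076, and 8 turned sign with cyclic loess and 9 with repeated quantile normalization. Their median was -0.019, against 0.011 over all probe sets and -0.027 over those with a mean signal of at least 7. The median size of a difference was 0.046, against 0.058 over all probe sets. Before adjustment, 4 of 29 (13.8%) had a limma p under 0.05, all of them lower after sleep deprivation, a share near the background of 15.3%. These were the probe sets of Akap5, Prkar2b and Prkaca described above. The exact permutation test gave 2 such probe sets and the exact rank-sum test 3 before adjustment, and 0 by either after it.

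The arrays of the groups overlapped for all 29 probe sets, and they were separate for 0.486% of all probe sets. With each gene read through its brightest probe set, 0 of 9 genes passed, against 3.97% of all 18193 genes. With so few probe sets and genes, counts of 0 cannot be told apart from these shares. Each 95% interval describes how large a difference in signal could have been missed at that probe set, and they do not hold jointly. Across the 29 they spanned -0.36 to 0.23, from 1.29-fold lower to 1.17-fold higher. Of them, 21 lay wholly within 0.2 of 0, a 1.15-fold difference either way. The 21 include dim probe sets, such as Prkacb 1457197_at (mean signal 4.03), where a narrow interval need not bound a change in RNA. A p that misses the threshold does not show that the levels were alike, and 4 intervals left out 0.

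**Figure D3:**
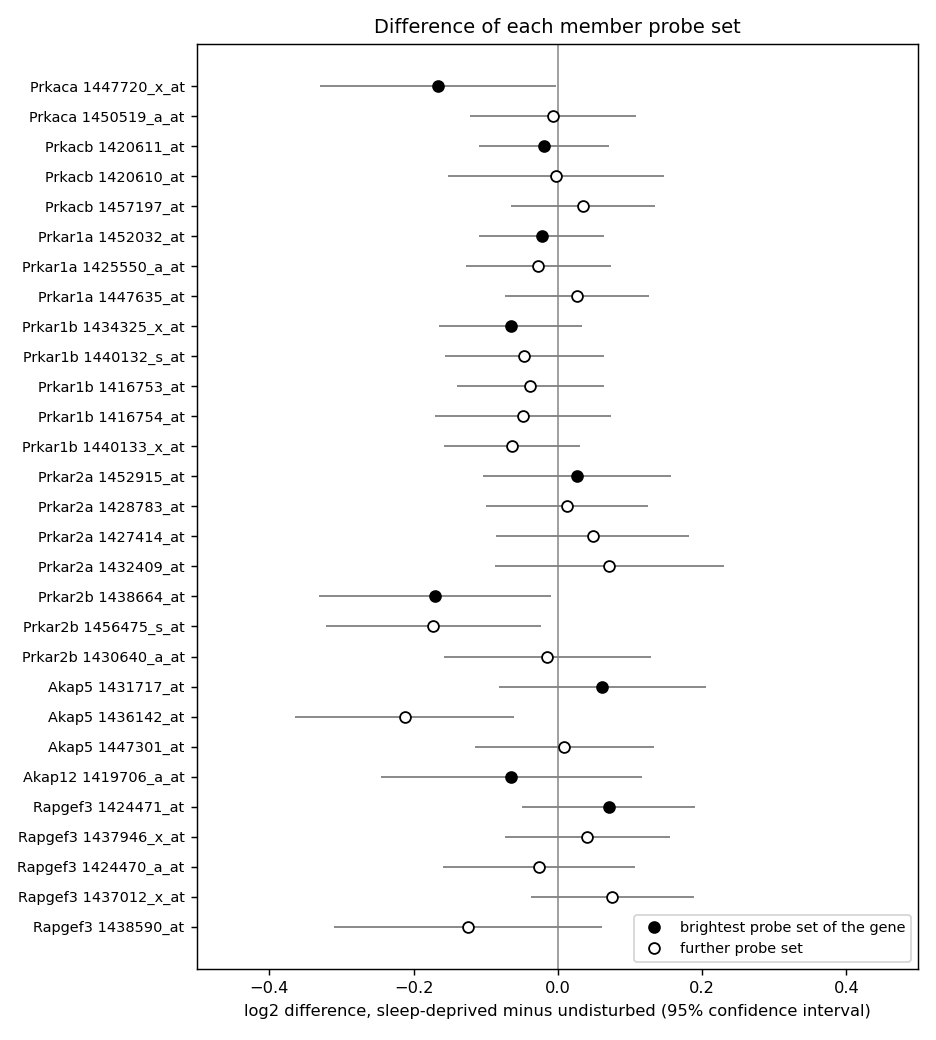
Difference in mean log2 signal, sleep-deprived minus undisturbed (horizontal axis), for each of the 29 probe sets, grouped by gene; points are limma estimates and bars are 95% intervals. The 4 intervals that leave out 0 belong to Prkaca 1447720_x_at, Prkar2b 1438664_at and 1456475_s_at, and Akap5 1436142_at, and no probe set passed after adjustment.

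To describe how the genes varied from animal to animal apart from the treatment, the residuals of the brightest probe sets were correlated over the 17 arrays after removal of each group's mean. Of the 36 pairs, 26 had r above 0 and the median r was 0.13, against 0.09 over all pairs of 9901 genes with a mean signal of at least 7. Prkaca and Prkar1b gave r = 0.79 and rho = 0.74, with permutation p = 0.00013 and 0.0013, adjusted over the 36 pairs to 0.0047 and 0.048. Prkar1a and Prkar2b gave r = 0.80 and rho = 0.73, with permutation p = 0.00074 and 0.0033, adjusted to 0.013 and 0.059. These were the 2 pairs that passed by Pearson's r, and the first alone passed by Spearman's rho. The share of all gene pairs that would pass such a test was not computed, so the count of 2 has no background beside it.

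Within the groups, Prkaca and Prkar1b gave r = 0.80 in undisturbed and 0.84 in sleep-deprived mice, and Prkar1a and Prkar2b gave 0.77 and 0.82. Without the 2 arrays farthest from the median on the first gene, r was 0.60 for the former pair and 0.78 for the latter, and neither passed (permutation p adjusted over the 36 pairs, 0.13 and 0.063). The r of Prkar1a and Prkar2b was thus about as large over fewer arrays, whereas that of Prkaca and Prkar1b was lower. The choice of probe set also mattered. The Prkaca and Prkar1b pair was read through 1447720_x_at and 1434325_x_at, both with the "x" that marks probes able to match other sequences. With the other Prkar1b probe sets, 1447720_x_at gave r = 0.35 to 0.45. Over the 10 combinations of Prkaca and Prkar1b probe sets r ran from -0.05 to 0.79 with a median of 0.32, and over the 9 combinations of Prkar1a and Prkar2b from -0.02 to 0.80 with a median of 0.19. All genes of an array share its RNA and normalization, and r over all gene pairs ran from -0.47 to 0.60 between the 5th and 95th percentiles.

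**Figure D4:**
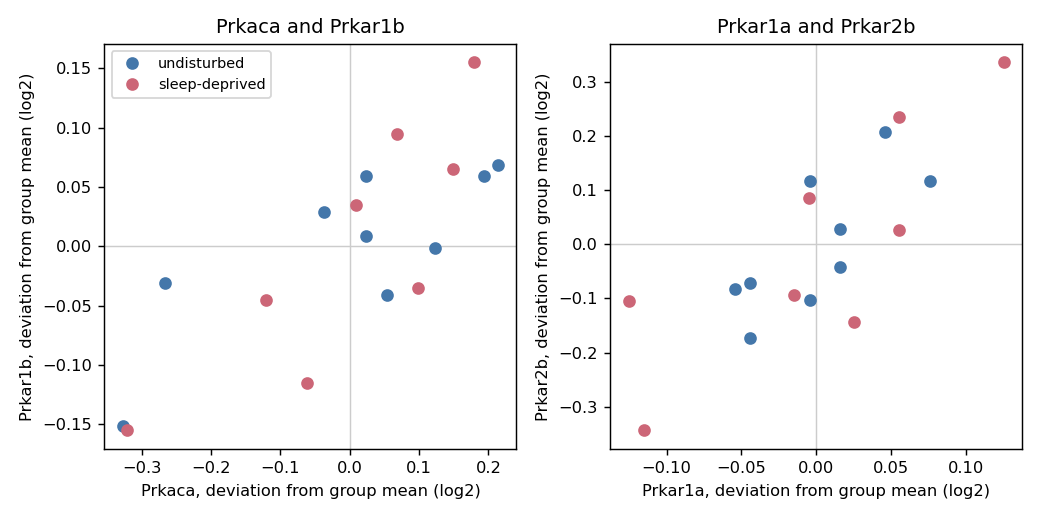
Residual log2 signal, each array minus its group mean, of Prkar1b against Prkaca and of Prkar2b against Prkar1a, with undisturbed (n = 9) and sleep-deprived (n = 8) arrays marked. The pairs have r = 0.79 and r = 0.80 over 17 arrays.

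The gene whose residuals were most like those of Akap5 1436142_at, among genes with a mean signal of at least 7, was Mtrr, a reductase of the methionine cycle (r = 0.86, rho = 0.79 over 17 arrays). Next came Atrnl1, an attractin-like membrane protein (r = 0.85, rho = 0.89), and Cbx1, a heterochromatin protein (r = 0.84, rho = 0.83). These are descriptions picked as the highest of many. Their own differences were 0.23 for Mtrr, -0.13 for Atrnl1 and 0.043 for Cbx1, and none passed (limma adjusted p over genes 0.057, 0.30 and 0.78).

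The wider pathway was taken from 8 lists with 144 genes, of which 131 were measured by 333 probe sets. Of these, 12 probe sets (3.6%, against 1.81% of all probe sets) passed, 4 higher and 8 lower after sleep deprivation. The median difference was -0.016, against 0.011 over all probe sets and -0.027 over those with a mean signal of at least 7. The calls fell in 10 genes, 3 higher and 7 lower. Pkig, Sik3, Ezr and Nfatc2 were called only at a probe set other than their brightest. The lists were written with earlier results of these data known, and the background includes probe sets with no symbol. Shares above the background, here and for single lists below, are therefore descriptions and no support for a change of the pathway. The count of 12 rests in part on single arrays. It was 7 without undisturbed replicate 3, 4, 6 or 8 or sleep-deprived replicate 3 or 7, and 6 without sleep-deprived replicate 5. With the choroid plexus marker mean as a covariate it was 7.

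**Figure D5:**
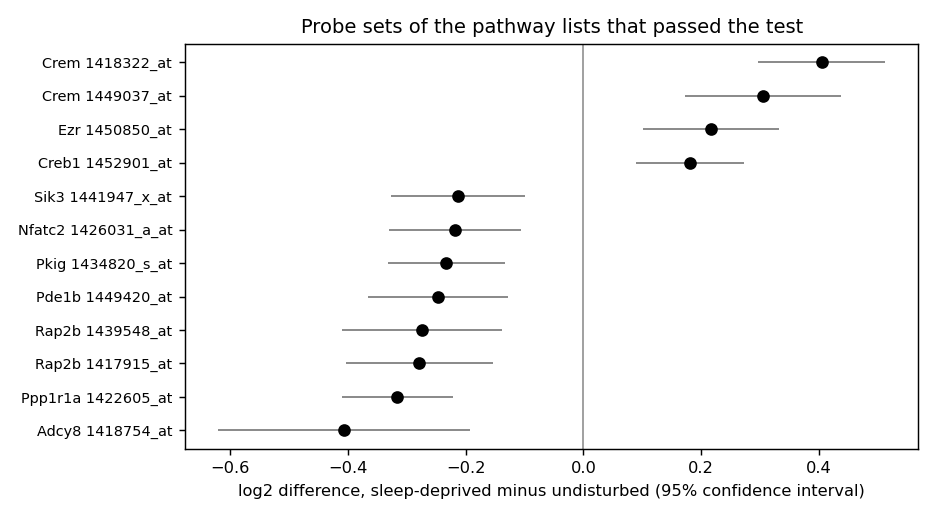
Difference in mean log2 signal, sleep-deprived minus undisturbed (horizontal axis), of the 12 probe sets of the pathway lists that passed the limma test, with 95% intervals, labelled by gene. Crem, Creb1 and Ezr lie above 0, up to 0.40 for Crem, and the others below it, down to -0.41 for Adcy8.

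Among inhibitors, substrates and relatives of the kinase, 2 of 23 probe sets were lower and none higher (8.7% called, against 1.81% of all probe sets), with a list median of -0.069. Ppp1r1a encodes inhibitor-1, which blocks protein phosphatase 1 once protein kinase A has phosphorylated it. It ran from 10.66 to 10.86 in undisturbed and from 10.37 to 10.61 in sleep-deprived mice, so the groups did not overlap. It was lower by 0.32 (log2 difference -0.32, SE 0.045, limma adjusted p = 0.00062), or 1.24-fold, and passed without each array in turn. Pkig, a protein kinase inhibitor that binds the free catalytic subunit, was lower at 1434820_s_at (log2 difference -0.23, SE 0.048, limma adjusted p = 0.013). There 8 of 8 sleep-deprived arrays lay below the undisturbed mean and 7 outside the undisturbed range, so the groups overlapped. Its brighter probe set gave -0.13 and did not pass over genes (limma adjusted p = 0.066).

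On the Epac side, 18 Rap GTPases and their regulators were measured by 38 probe sets, with 2 lower (5.26%, against 1.81% of all) and a median of -0.020. Both belonged to Rap2b, a small GTPase of the Rap family, whose 4 probe sets gave differences from -0.28 to -0.0011. Its brightest probe set, 1439548_at, ran from 8.85 through 9.19 to 9.32 in undisturbed and from 8.70 through 8.86 to 9.05 in sleep-deprived mice. The difference was -0.27 (limma adjusted p = 0.031), and the call was lost in 9 of the 17 fits that left out 1 array, with an adjusted p of up to 0.063, and in the exact permutation and rank-sum tests (adjusted p 0.076 and 0.10). The other called probe set, 1417915_at, was dim at 5.14 ± 0.066 (SD, n = 9) and 4.86 ± 0.17 (SD, n = 8), and gave -0.28.

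Of the probe sets for cAMP synthesis and its G proteins 1 of 54 passed, and of those for cAMP breakdown 1 of 46, both lower. These shares (1.85% and 2.17%) are near the 1.81% of all probe sets. Adcy8, a calcium-stimulated adenylyl cyclase, gave -0.41 (SE 0.10, limma adjusted p = 0.043), a call lost in 11 of 17 fits without 1 array (adjusted p up to 0.086). That call was also lost with array weights, with the choroid plexus covariate and in the exact permutation and rank-sum tests (adjusted p 0.10 and 0.15). Pde1b, a calcium- and calmodulin-dependent phosphodiesterase, gave -0.25 (limma adjusted p = 0.026), lost in 3 of 17 (up to 0.056). The list medians were -0.017 and -0.0045. None of the 12 measured genes of other cyclic nucleotide effectors passed in limma (median 0.022 over 16 probe sets).

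In the list of cAMP-responsive transcription, 3 of 50 probe sets were higher and 1 lower (8% called, against 1.81% of all probe sets). Crem, a CREB relative that also yields the inducible repressor ICER, had the clearest change. At 1418322_at undisturbed arrays ran from 6.50 through 6.69 to 6.86 and sleep-deprived arrays from 6.97 through 7.03 to 7.25, with no overlap. It rose by 0.40 (SE 0.052, limma adjusted p = 0.00025), or 1.32-fold, and its brightest probe set rose by 0.31 (limma adjusted p = 0.013, exact rank-sum adjusted p = 0.053). The lowest of the 4 Crem probe sets gave -0.026.

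Creb1, the transcription factor that the freed catalytic subunit phosphorylates, was higher by 0.18 at its brightest probe set (limma adjusted p = 0.035), with 7 of 8 sleep-deprived arrays above the undisturbed mean. Its 6 probe sets gave 0.051 to 0.18. Sik3, a salt-inducible kinase that protein kinase A inhibits, passed at 1441947_x_at (-0.21, limma adjusted p = 0.048), while its brightest probe set gave -0.028. Each of these calls was lost in 13 of 17 fits that left out 1 array, with an adjusted p of up to 0.071 for Creb1 and 0.092 for Sik3. The Creb1 call was also lost when arrays were centred on their medians and with the replicate block, the Sik3 call with cyclic loess and repeated quantile normalization, and both with the choroid plexus covariate.

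Among 22 other A-kinase anchoring proteins, Ezr alone passed, at 1 of 54 probe sets (1.85%). It encodes ezrin, which links membranes to actin. At 1450850_at it was higher by 0.22 (limma adjusted p = 0.046), a call lost in 13 of 17 fits without 1 array (up to 0.092). The call was also lost after centring on array medians, with array weights, with the RNA quality or choroid plexus covariate, and in the exact permutation and rank-sum tests (adjusted p 0.066 and 0.082). Its brighter probe set gave 0.11 (limma adjusted p over genes 0.43). Among 17 measured partners of the Akap5 complex, 1 of 52 probe sets passed (1.92%). Nfatc2, a transcription factor that calcineurin dephosphorylates, passed at the dim probe set 1426031_a_at (-0.22, limma adjusted p = 0.038). Its brightest probe set gave -0.052, its 6 probe sets ran from -0.22 to 0.14, and the call was lost in 9 of 17 fits without 1 array (up to 0.079) and with the choroid plexus covariate. The medians of these lists were -0.012 and -0.037.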

How the data were processed

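Hippocampal RNA of 17 mice was read on Affymetrix Mouse 430_2 arrays. The authors deposited log2 signals, and the submitters' processing notes name RMA and affy, with no version. The log base was taken from the range of the values. The 64 control probe sets were left out of the tests. Symbols came from the platform annotation. Of 45037 probe sets, 34945 had 1 symbol, 932 several and 9160 none, and 34741 matched a RefSeq gene.

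Group means were fitted with limma 3.58.1 (R 4.3.3) on all probe sets, with Benjamini-Hochberg adjustment over all of them and a threshold of 0.05. Genes were read through the brightest probe set. Exact permutation and rank-sum tests over all assignments of the arrays were run beside it, and residual correlations used 100000 permutations within groups. The fits were tested on simulated data. Promoter windows came from RefSeq (GRCm38.p6). Replicates were separate animals.

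Every probe set of the listed genes is reported. Of the pathway lists, each gene that passed is named and the rest are given as counts. For the probe set with the smallest p, the 3 genes with the highest residual r are named. The members and lists were chosen with earlier results of these data known. Alternatives were normalization, filters, covariates, array weights, the replicate block, other tests and leaving out each array.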

Additional observations from a re-analysis of the deposited data

How the results depend on the processing

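No probe set, gene or pair of probe sets of the kinase's subunits, anchors and Epac1 passed under any alternative run. Of 831 comparisons of a probe set with its main fit, 776 kept the sign of the difference and 55 turned it. None passed the threshold, and none that turned was above 0.0511 in size. The signal filters, limma's trend and robust options and the exact tests leave the difference as it was, so those comparisons could not turn. The adjusted p of Akap5 1436142_at ranged from 0.0785 (mean signal of at least 7) to 0.258. The replicate block was not taken as a pairing, because same-numbered arrays deviated together, at a correlation over 0.1, for 4 of 8 numbers (range -0.068 to 0.39). With the replicate block 0 of the 29 probe sets and 12 pathway probe sets passed, although the Creb1 call was lost.

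The 12 pathway probe sets became 7 with the choroid plexus covariate, 2 at a threshold of 0.01, and 6 to 10 without each array. Of 344 comparisons of these probe sets with their main fit, 91 lost the call and 0 turned sign. Here too, the filters, the limma options and the exact tests could not turn a sign. The 2 pairs that covaried became 0 without 2 arrays, and 1 by Spearman's rho, an alternative chosen after seeing the data.

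Differences that turned sign were as follows, and the cause was not tested. With cyclic loess and then with repeated quantile normalization, Prkacb 1420610_at gave 0.0303 and 0.0273, Prkacb 1420611_at 0.0212 and 0.0232, Prkaca 1450519_a_at 0.0289 and 0.028, Prkar1a 1452032_at 0.0191 and 0.0136, Prkar1a 1425550_a_at 0.0133 and 0.0114, Prkar1a 1447635_at -0.00887 and -0.00508, Prkar1b 1416753_at 0.00276 and 0.000435, and Akap5 1447301_at -0.0214 and -0.0158. Repeated quantile normalization also gave -0.000591 for Prkacb 1457197_at. With array weights, Prkacb 1420610_at gave 0.00352, Prkacb 1420611_at 0.00475 and Rapgef3 1424470_a_at 0.00793. Median centring gave -0.0052 for Prkar2a 1428783_at and -0.0091 for Akap5 1447301_at, which was -0.00787 with the replicate block. The choroid plexus covariate gave 0.0154 for Prkacb 1420610_at and 0.00748 for Prkaca 1450519_a_at, and the RNA quality covariate 0.0134 for Prkacb 1420610_at.

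Without each array in turn, differences that crossed 0 ran from -0.0352 to 0.0104 for Prkaca 1450519_a_at, -0.0333 to 0.0056 for Prkacb 1420611_at, -0.0351 to 0.0511 for Prkacb 1420610_at, -0.00825 to 0.055 for Prkar2a 1452915_at, -0.0221 to 0.0351 for Prkar2a 1428783_at, -0.0494 to 0.0276 for Prkar2b 1430640_a_at, -0.0198 to 0.0488 for Akap5 1447301_at, and -0.0489 to 0.00599 for Rapgef3 1424470_a_at. The 5 probe sets with a mean signal under 6 are too dim for their small differences to be read.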
